A study of Rattus norvegicus with 2 samples.

Results

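The genes described here encode the E2F, retinoblastoma, Myb and Foxm1 regulators, the transcription factors and co-repressors that switch cell division genes on and off. They were chosen by name as E2f1, E2f3, E2f7, E2f8, Rb1, Rbl1, Rbl2, Mybl1, Mybl2 and Foxm1, and every probe set carrying one of these symbols in the platform annotation was taken. Of the 10 genes, 9 had a probe set under that single symbol, 7 with 1 probe set and 2 with 2, giving 11 probe sets among the 14217 genes named on the array. E2f3 was not analysed here.

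Rats lost less or more of the liver, and what remained was profiled 24 h later. The groups are 1/3PH and 2/3PH, partial hepatectomies named for the share of liver taken, and RNA from 3 rats was pooled for the single array of each group, so 6 rats gave 2 arrays. The design text calls DNA replication robust after 2/3PH and minimal after 1/3PH, and the comparison asks which messages differ between them. Both groups were operated animals, no other agent or allele is named, and the sources used here do not give strain, sex or age. The tissue carried hepatocyte messages, with 5 of 5 measured markers (albumin among them) at signals of 26282 or more on both arrays.

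In resting cells, pocket proteins hold E2F factors on promoters in a silent state. Rb1 encodes the retinoblastoma protein, which binds mainly the activating E2Fs, while Rbl2 and Rbl1 encode its relatives, the first typical of quiescent cells and the second of cycling cells. Cyclin-dependent kinases phosphorylate these proteins at the start of the cycle, E2F-driven S-phase genes come on, and B-Myb (Mybl2) and Foxm1 then work with the MuvB complex on genes of mitosis. The liver is known for this switch, since most of its hepatocytes rest until tissue is lost.

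Promoter sequences are shown for the measured members that the RefSeq promoter table of assembly GRCr8 held, because several of these genes are themselves known E2F targets. Each runs 5′ to 3′ over 300 bases, from 250 before to 50 after the annotated start. Capitals mark matches on either strand to an E2F site (TTTCCCGC, TTTCGCGC, TTTGCCGC or TTTGGCGC), to the shorter E2F core GGCGGGA, which can overlap those words, and to the cell cycle homology region, or CHR (TTTGAA or TTCGAA), which MuvB complexes bind.
Rbl1, chr3:166289327-166289626, minus strand: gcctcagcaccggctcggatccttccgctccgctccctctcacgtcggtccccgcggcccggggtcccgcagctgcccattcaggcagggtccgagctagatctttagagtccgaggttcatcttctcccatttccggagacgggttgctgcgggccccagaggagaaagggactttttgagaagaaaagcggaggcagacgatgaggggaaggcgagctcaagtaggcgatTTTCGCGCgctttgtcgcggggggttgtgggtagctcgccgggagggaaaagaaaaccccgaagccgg
Mybl2, chr3:172124555-172124854, plus strand: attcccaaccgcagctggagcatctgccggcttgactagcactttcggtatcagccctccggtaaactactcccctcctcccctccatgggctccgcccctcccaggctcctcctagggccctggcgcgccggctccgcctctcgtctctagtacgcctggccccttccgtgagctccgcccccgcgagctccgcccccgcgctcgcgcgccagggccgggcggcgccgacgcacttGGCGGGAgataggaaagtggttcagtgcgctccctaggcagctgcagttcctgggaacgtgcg
E2f7, chr7:48036653-48036952, plus strand: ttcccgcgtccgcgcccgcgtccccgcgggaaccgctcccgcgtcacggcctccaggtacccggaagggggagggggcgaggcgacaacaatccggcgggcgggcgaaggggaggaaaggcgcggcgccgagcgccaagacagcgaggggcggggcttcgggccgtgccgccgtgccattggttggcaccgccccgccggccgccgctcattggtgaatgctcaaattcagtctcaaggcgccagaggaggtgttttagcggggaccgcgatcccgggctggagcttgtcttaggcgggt
Rb1, chr15:54911808-54912107, minus strand: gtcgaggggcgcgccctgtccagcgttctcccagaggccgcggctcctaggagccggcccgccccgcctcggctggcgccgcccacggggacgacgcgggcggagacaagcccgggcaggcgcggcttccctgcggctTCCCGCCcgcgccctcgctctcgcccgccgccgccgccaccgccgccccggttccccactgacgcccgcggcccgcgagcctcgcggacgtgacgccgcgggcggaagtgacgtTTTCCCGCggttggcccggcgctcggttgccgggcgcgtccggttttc
Rbl2, chr19:32096362-32096661, minus strand: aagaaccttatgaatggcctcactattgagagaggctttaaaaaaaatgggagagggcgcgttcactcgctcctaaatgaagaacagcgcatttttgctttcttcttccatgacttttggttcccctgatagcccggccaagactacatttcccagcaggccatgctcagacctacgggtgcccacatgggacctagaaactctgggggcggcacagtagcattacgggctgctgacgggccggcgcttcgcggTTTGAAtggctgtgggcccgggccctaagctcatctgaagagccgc

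The Rbl1 window held 1 E2F word, TTTCGCGC, at positions -18 to -11 from the start. In Mybl2 the core lay at -13 to -7 on the gene's own strand. Rb1 held TTTCCCGC at 3 to 10 and the core at -112 to -106 on the opposite strand. The Rbl2 window held no E2F letters of these forms but a CHR, TTTGAA, at 5 to 10, and the E2f7 window held neither. Over all 33469 promoter windows of this length, 2.14% held one of the E2F words, 10.5% the core and 19.7% a CHR. Among 8018 genes above the signal floor given below, 24.3% held an E2F word or the core and 13.6% a CHR. E2f1, E2f8, Mybl1 and Foxm1 had no window printed here.

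Of the 9 measured regulators, 6 were at least 2-fold higher after 2/3PH than after 1/3PH and none was 2-fold lower. Those higher were the atypical E2Fs E2f7 and E2f8, the pocket protein gene Rbl1, both Myb relatives Mybl1 and Mybl2, and Foxm1. E2f1 differed little, and Rb1 and Rbl2 were lower by less than 2-fold. Among all 9514 genes above a signal floor, the share at least 2-fold higher was 6.12%, and 3.68% were lower by as much. All 6 were also past 3-fold, which 2.24% of all genes reached upward and 0.999% downward. The floor was a signal of 89.2, the median of mean log2 signal over probe sets. All 9 regulators passed it by their mean, but E2f7, Mybl2 and Foxm1 lay under it on the 1/3PH array and so passed only through the 2/3PH array. With the floor signal in place of those dim values, 6 genes still differed by 2-fold and 5 by 3-fold. With 1 array per group there was no replicate error and no test was made. In bulk tissue, a change in the number of cells carrying a message and a change in message per cell cannot be told apart.

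**Figure D1:**
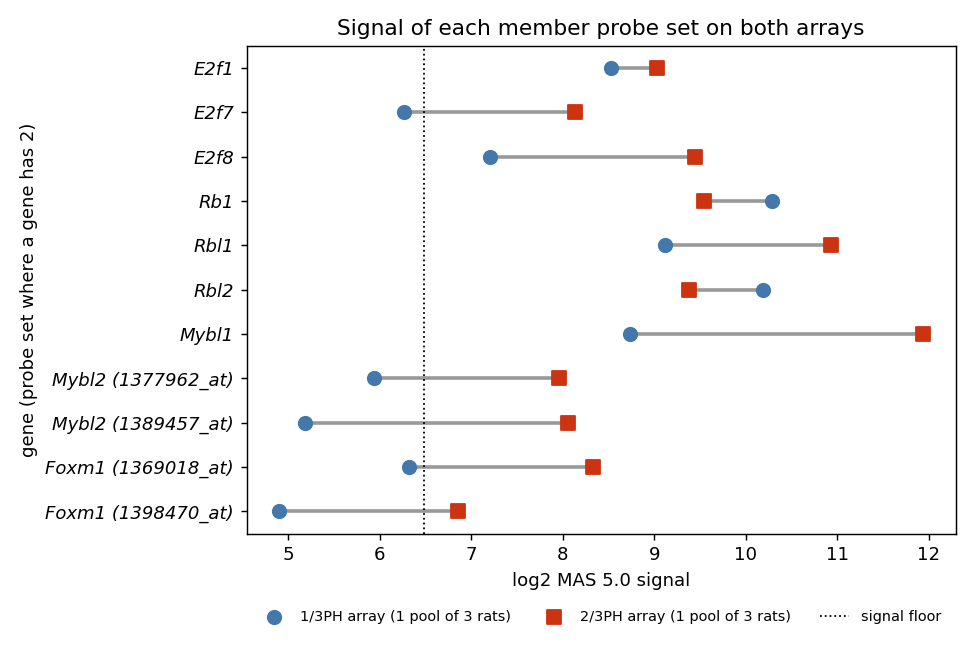
Signal of the 11 probe sets on the log2 scale (x axis), 1 row per probe set, with circles for the 1/3PH array, squares for the 2/3PH array and a dotted line at the floor of 6.48. Squares lie to the right of circles for every gene except Rb1 and Rbl2, and 5 circles, those of E2f7, Mybl2 and Foxm1, lie left of the floor.

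Among the E2F genes, the atypical pair differed far more than E2f1. E2f1, an activating E2F that drives entry into S phase, had signals of 369.1 with 1/3PH and 524.3 with 2/3PH, a log2 ratio of 0.51 or 1.42-fold. E2f7 had signals of 76.8 and 280.5. E2F7 and E2F8 bind E2F sites without a DP partner and repress E2F targets late in S phase, and in mouse liver they are known for promoting polyploid hepatocytes. Because 76.8 is under the floor, E2f7 was at least 3.14-fold higher (log2 ratio 1.87 as measured). E2f8 had signals of 147.3 and 698.3, above the floor on both arrays, a log2 ratio of 2.24 or 4.74-fold. The E2f8 ratio exceeded that of E2f1 by 1.74 on the log2 scale. No difference from E2f7 is given, since its 1/3PH signal was under the floor. In place of an error, these arrays give only the spread between probe sets of 1 gene. Over 2067 genes with 2 probe sets above the floor, the SD of the difference between their log2 ratios was 0.44, so the gap between E2f8 and E2f1, both above the floor on both arrays, was larger than that spread. That spread comes from the same arrays and holds no variation between animals or between repeat arrays. It is not an error for a difference between genes.

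The pocket protein genes went in opposite directions. Rbl1, which encodes p107, had signals of 554.4 with 1/3PH and 1955 with 2/3PH, a log2 ratio of 1.82 or 3.53-fold higher. Rbl2, which encodes p130, had signals of 1172 and 667.7, a log2 ratio of -0.81 or 1.76-fold lower. Rb1 had signals of 1251 and 747.4, a log2 ratio of -0.74 or 1.67-fold lower. Rb1 and Rbl2 differed from each other by 0.07 in log2 ratio, within the spread between probe sets, whereas Rbl1 exceeded Rbl2 by 2.63 and Rb1 by 2.56. Both lower values missed the 2-fold limit. Of the genes above the floor, 595 had a ratio below that of Rbl2 and 731 one below that of Rb1.

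The lower ratios of Rb1 and Rbl2 kept their sign under 5 other scalings of the arrays but were nearer to 0 under both spike-in scalings. With hybridisation controls they were -0.51 for Rb1 and -0.58 for Rbl2. They were nearest to 0 with scaling to poly-A spike-in controls, at -0.32 for Rb1 and -0.38 for Rbl2. That scaling moved the median of all genes up by 0.43, so that, by its construction, both genes lay as far below that median as on the deposited scale. Scaling to hybridisation controls moved that median up by 0.24. The other 3 scalings moved it by between -0.05 and -0.02.

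Mybl1 had the largest measured ratio of the 9 genes, 3 of which have only a lower bound. This gene encodes A-Myb, best known from meiosis in the testis, and its signal was 427.9 with 1/3PH and 3933 with 2/3PH. The log2 ratio of 3.20, or 9.19-fold, was exceeded by 10 of the 9514 genes above the floor. Mybl2 encodes B-Myb, the Myb protein of most dividing cells, and had a pair of probe sets. The brighter (1377962_at) read 61.5 after 1/3PH and 248.1 after 2/3PH, at least 2.78-fold higher. The other (1389457_at) read 36.2 and 267.4, at least 3.00-fold higher. Measured log2 ratios were 2.01 and 2.88, but both 1/3PH values were under the floor, so only the bounds can be compared. Myb, the founding member of the family and a gene of blood progenitors, was under the floor on both arrays, at 30.6 and 11.2.

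Foxm1, a forkhead factor needed for mitotic gene expression, was higher by both of its probe sets. The brighter (1369018_at) had signals of 80.1 and 321.0 and was at least 3.60-fold higher. The dimmer (1398470_at) had signals of 29.8 and 115.6 and was at least 1.30-fold higher, its mean being under the floor. Measured log2 ratios were 2.00 and 1.96, with all 1/3PH values under the floor.

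Among the 6 genes above the floor on both arrays, Mybl1 came first in log2 ratio, 0.96 above E2f8, and Rbl1 followed. A step of 1.31 led down from Rbl1 to E2f1 and another of 1.25 to Rb1, with Rbl2 beside it. E2f7, Mybl2 and Foxm1 have no place in this order, because their ratios are lower bounds. The median over the 9 genes was 1.87, or 1.65 with the floor in place of dim signals, against 0.03 over all genes above the floor. Since 3 of the 9 passed only through the array where they were high, this median is a description.

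**Figure D2:**
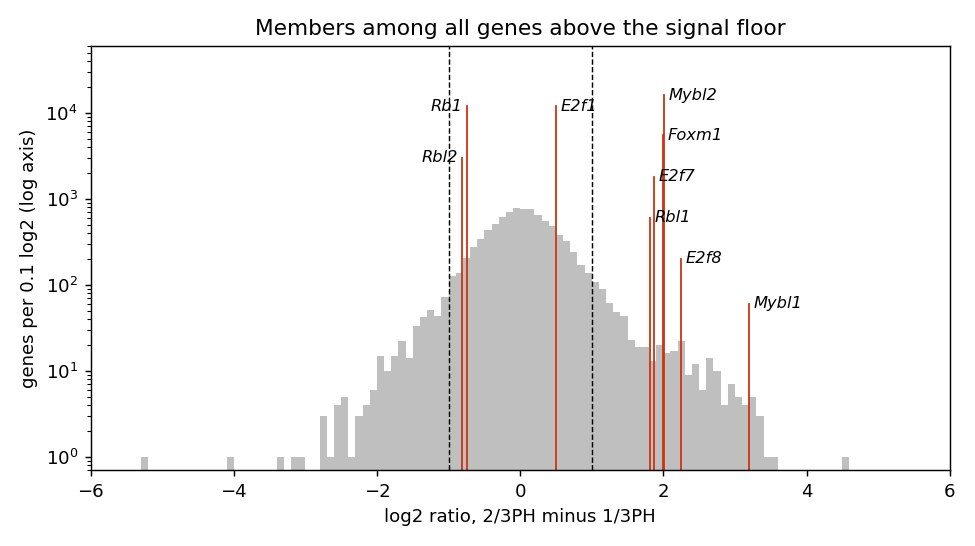
Histogram of log2 ratios (x axis, 2/3PH minus 1/3PH) of the 9514 genes above the floor, counted per 0.1 on a log y axis, with dashed lines at 2-fold and red lines at each measured regulator. The height of a red line only places its label. As measured, Mybl1 lies at 3.20, a group of 5 between 1.82 and 2.24 (3 of them with a 1/3PH signal under the floor), E2f1 at 0.51, and Rb1 and Rbl2 at -0.74 and -0.81.

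By the nearest log2 ratio over these 2 arrays, the genes most like Mybl1 were Ttk, a spindle checkpoint kinase, at 3.21, Aurkb, the chromosomal passenger kinase, at 3.24, and the tubulin Tubb6 at 3.26. Ttk had signals of 129.0 after 1/3PH and 1195 after 2/3PH. Those nearest to Rbl2 were Adgrl1, a latrophilin receptor, the vitamin E transfer protein gene Ttpa and the R-spondin receptor gene Lgr4, each at -0.81. A ratio between 2 arrays is a thin measure of likeness, and many genes share a value near -0.81.

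The partners through which these regulators act differed less. Of 13 listed E2F, DP, MuvB and related genes, Myb included, 12 had a probe set. All of these but Myb were above the floor. Of those 11, 4 were at least 2-fold higher, against 6.12% of all genes, and none was lower, against 3.68%. Their median log2 ratio was 0.59. Tfdp1, which encodes the main DP partner of classical E2Fs, had signals of 2114 and 5213, a log2 ratio of 1.30. Its relative Tfdp2 stood at 0.16 by the brightest of 3 probe sets, at -0.08 by another and at 0.00 by the dimmest. Lin9, a MuvB subunit that contacts B-Myb, had signals of 158.9 and 415.9, a log2 ratio of 1.39.

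The other MuvB subunits stayed within 2-fold, with log2 ratios of 0.59 for Lin54, the subunit that reads the CHR, 0.18 for Lin52 and -0.19 for Lin37. The Lin37 value turned positive under both spike-in scalings, at 0.05 with hybridisation and 0.24 with poly-A controls. Rbbp7, a histone-binding protein, stood at 0.89. Among the remaining E2Fs, the activator E2f2 had signals of 201.5 and 448.1, a log2 ratio of 1.15, and E2f5, a partner of p130, had signals of 240.3 and 519.5, a log2 ratio of 1.11. E2f4, the main E2F of quiescent cells, stood at 0.57 and the repressor E2f6 at 0.27. Of 7 E2F genes measured in all, 4 were therefore past 2-fold, with the atypical pair above the others.

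**Figure D3:**
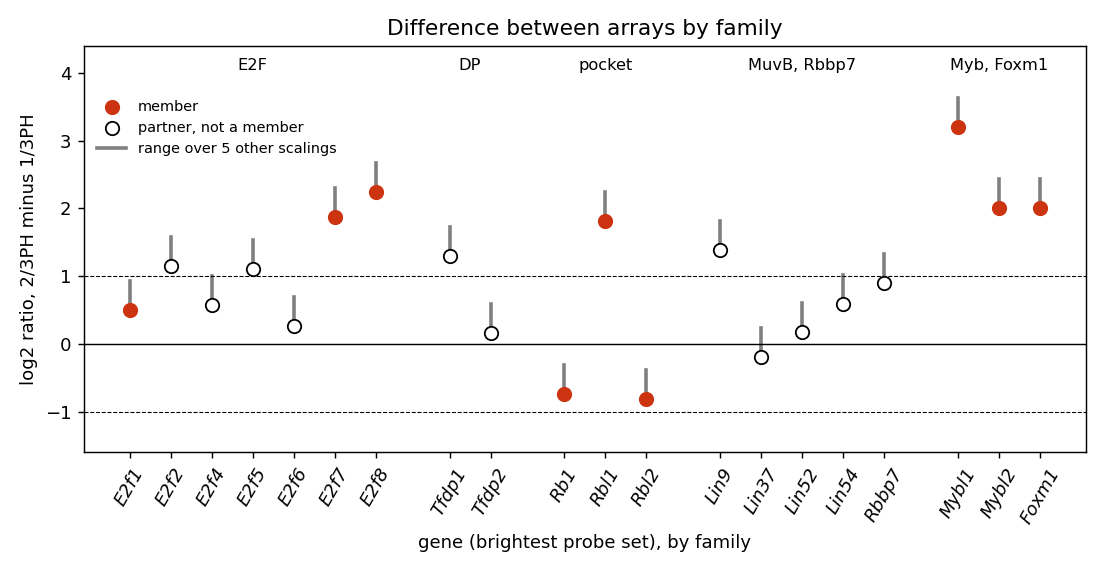
Log2 ratio (y axis, 2/3PH minus 1/3PH) of the brightest probe set of each gene, grouped by family, with filled points for the 9 regulators, open points for partners and grey bars for the range over 5 other scalings. Rbl1 stands at 1.82 between Rb1 and Rbl2, which lie below 0, and of the partners Lin9 is highest at 1.39.

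Upstream genes that act on the pocket proteins were split. Of 17 cyclins, kinases and inhibitors, 14 were above the floor. Of these, 7 were at least 2-fold higher, against 6.12% of all genes, and none was lower, against 3.68%. The cyclins Ccna2 and Ccnd1 led at log2 ratios of 3.55 and 3.39, followed by Ccne1 at 2.79 and Ccne2 at 2.36. The others past 2-fold were inhibitors, Cdkn1a at 2.17, Cdkn2c at 1.36 and Cdkn2d at 1.11. The kinases Cdk4 at 0.77 and Cdk2 at 0.63 stayed within 2-fold. So did the cyclins Ccnd3 at 0.37 and Ccnd2 at -0.26 and the inhibitors Cdkn1b at 0.48 and Cdkn1c at -0.35. With poly-A scaling Ccnd2 and Cdkn1c turned positive, at 0.16 and 0.08. Cdkn1c was under the floor on the 2/3PH array, at 86.3. Dyrk1a, a kinase that promotes assembly of the repressive DREAM complex around p130, stood at 0.18.

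Genes downstream were higher almost throughout. Of 29 measured E2F targets, 28 were above the floor. Of these, 25 passed 2-fold upward, against 6.12% of all genes, and none downward, against 3.68%. Their median log2 ratio was 1.94. The largest ratios were 3.14 for Uhrf1, which maintains DNA methylation, 2.79 for cyclin E1, 2.74 for the licensing inhibitor Gmnn and 2.48 for the helicase subunit Mcm3. Of 27 measured targets of Myb-MuvB and Foxm1, 24 were above the floor, and 23 of these passed 2-fold upward, against the same 6.12%. The median of that list was 2.80. Besides Ccna2, the largest were Aurkb at 3.24, Ttk at 3.21 and the anaphase activator Cdc20 at 3.14. Cdc25b, a mitotic phosphatase, was the exception at 0.12. Another 3 genes of that list had a mean under the floor. The kinase gene Plk1 had signals of 9.81 and 511.3, at least 5.73-fold higher. Cenpe, at 32.7 and 157.4, and Cenpa, at 47.1 and 105.3, were at least 1.76-fold and 1.18-fold higher, bounds short of 2-fold. Of the genes counted above the floor, 1 E2F target (Orc1) and 2 of the mitotic list (Cenpf and Kif23) passed it only through the 2/3PH array.

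Promoter letters divided the downstream lists by kind. An E2F word or core was present in 20 of 26 E2F target promoters (76.9%), in 8 of 23 promoters of the mitotic list (34.8%) and in 24.3% of 8018 genes above the floor. A CHR was present in 4 of 26 E2F targets (15.4%), in 17 of 23 of the mitotic list (73.9%) and in 13.6% of genes above the floor. The lists hold well-known targets of each factor, so these shares describe the lists and say nothing about binding in these livers. Of the 5 measured regulators with a window, 3 held E2F letters, among them Rb1, whose ratio was below 0.

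**Figure D4:**
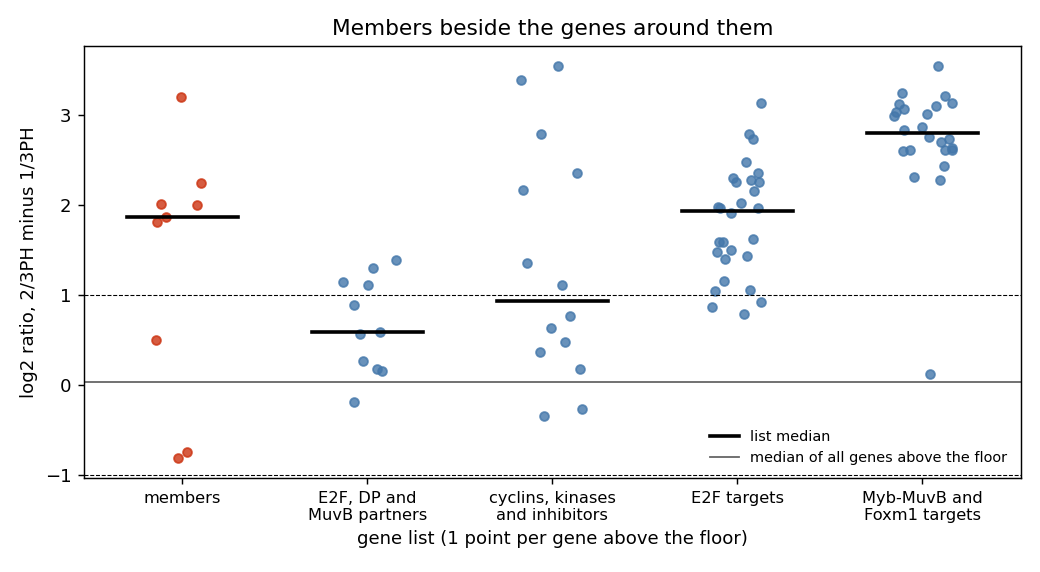
Log2 ratio (y axis, 2/3PH minus 1/3PH) of each gene above the floor in 5 lists, 1 point per gene, with a black bar at each list's median and a grey line at 0.03, the median of all genes above the floor. Medians run from 0.59 for the partners to 2.80 for Myb-MuvB and Foxm1 targets, and the 9 regulators (red) spread from -0.81 to 3.20.

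Markers of other liver cells were mostly lower on the same arrays. Over 6 lists of macrophage, endothelial, stellate, lymphocyte, neutrophil or erythroid, and cholangiocyte markers, 34 of 39 genes had a probe set and 28 were above the floor. Of these, 24 had ratios below 0 and 4 above. At least 2-fold lower were 6, against 3.68% of all genes, and none was 2-fold higher, against 6.12%. Among the 6, the lymphocyte marker Gzma was under the floor on the 2/3PH array, at 62.3. Against the floor it was at least 1.69-fold lower, short of 2-fold. With poly-A scaling 18 of the 28 markers had ratios below 0 and 10 above. On the deposited scale all 7 macrophage markers were lower, their summed signal being 15904 after 1/3PH and 10585 after 2/3PH, and all 6 endothelial markers were at or below 0, at 11477 and 7326. The stellate sums were 10789 and 6567, the lymphocyte sums 986.2 and 573.3, the neutrophil and erythroid sums 27145 and 13519, and the cholangiocyte sums 1240 and 1292. Single bright genes made up most of the stellate, lymphocyte, neutrophil and erythroid, and cholangiocyte sums. Col3a1 gave 7022 and 4026, Ptprc 681.0 and 391.3, Hbb 24195.5 and 12168, and Epcam 777.1 and 912.2. The stellate markers Pdgfrb and Des had log2 ratios above 0, at 0.43 and 0.20, with Des under the floor on the 1/3PH array. The lymphocyte markers Cd3e, Cd3d, Cd8a and Ms4a1, the erythroid factor Gata1 and the cholangiocyte marker Krt7 were under the floor on both arrays. Their ratios were therefore not read in either direction. The hepatocyte sums were 183843 and 163281. The part of cell makeup in the lower values of Rb1 and Rbl2 was not tested.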

How the data were processed

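Liver RNA of 2 groups was measured, 1 Affymetrix array per group, each from a pool of 3 rats. Per the labels' protocols, a 3' IVT Express kit gave the cRNA, and MAS 5.0 in GeneSpring 11.0 gave the signals. The deposited values are log2 signals of 31099 probe sets. Read as powers of 2, their mean without the top and bottom 2% was 500.3 for 1/3PH and 500.2 for 2/3PH, so both arrays share 1 scale and a change in total RNA per cell cannot be read. The sources used here give no detection calls.

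The platform annotation named the probe sets, and Entrez identifiers brought symbols up to date with RefSeq (assembly GRCr8). Of 31042 probe sets that are not controls, 20826 had 1 symbol, 436 several and 9780 none listed. The brightest probe set by mean log2 signal stood for a gene, and every probe set of a regulator is also given. The floor was the 50th percentile of mean log2 signal, 6.48. Log2 ratios are 2/3PH minus 1/3PH, and a limit of 2-fold stood in place of a test. Where the dimmer signal was under the floor, the fold is "at least", against the floor. Named genes are all regulators and partners, up to 4 genes of each other list with the largest absolute ratio, and the 3 genes nearest in ratio to the highest and lowest regulator. Some further genes were named after their values were seen. They are the upstream genes other than the leading cyclins (Dyrk1a among them), Cdc25b, Plk1, Cenpe and Cenpa. The genes said to pass the floor on 1 array and the single markers were also named in this way. Cyclin genes can stand in more than 1 list. The regulators and lists were chosen with earlier results of these data known. The steps were checked on data with planted differences. Of 10 listed genes, 6 matched the promoter table (E2f3 among them). Python 3.11.15, pandas 2.3.3, statsmodels 0.14.6 and matplotlib 3.10.9 were used. The number of arrays limits the precision.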

Additional observations from a re-analysis of the deposited data

How the results depend on the processing

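Results were recomputed 12 ways. Arrays were rescaled 5 ways (to equal medians, by quantiles, by a loess fit, to hybridisation controls and to poly-A controls). The floor was dropped or raised to the 75th percentile, 64 units were added to each signal, probe sets of a gene were averaged, probe sets with the endings _s_at, _x_at and _a_at were left out, and the limit was set to 1.5-fold or 3-fold. In 11 of them the count of regulators past the upward limit was 6, by measured ratios. With the floor in place of dim signals, the count at the 3-fold limit was 5. Dropping the floor or leaving out those endings could not change the count of 6. Every measured regulator already passed the floor, and none of their probe sets has such an ending. With the 75th percentile floor 4 regulators were left, 2 of them 2-fold higher (Mybl1 and Rbl1), with a median log2 ratio of 0.54, because fewer genes were counted. Under that floor the partners gave 1, the Myb-MuvB and Foxm1 targets 14 of 14 and all genes 285. The median of the regulators was 2.30 with poly-A scaling and 1.31 with 64 units added, which shrinks dim ratios, and the partners then gave 2. At 1.5-fold Rb1 and Rbl2 counted as lower, so that 2 regulators did, as did 1145 of 9514 genes (12%). At 3-fold the partners gave 0. The count of all genes was 973 with hybridisation control scaling, 1548 with poly-A scaling, 1662 without a floor, 1504 at 1.5-fold and 213 at 3-fold. No log2 ratio of a regulator changed sign in 85 values over these alternatives, and 71 moved by less than 0.31, the SD of 1 probe set's ratio. Many of the 71 could not move. Ratios are unchanged by construction when the floor is dropped or raised or the endings are left out. Averaging probe sets likewise leaves the 7 regulators with 1 probe set unchanged. Scaling to equal medians, hybridisation controls or poly-A controls shifts every ratio by 1 amount, -0.05, 0.24 and 0.43 in turn. Under each of these, all regulators therefore fell on the same side of 0.31. No paired analysis was possible because each group has 1 array, and no array could be left out.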
